A study of Homo sapiens with 12 samples.

Results

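The genes described here are 39 genes that build, load and run the DNA replication machinery or supply it during S phase, the stage of the cell cycle in which the genome is copied. They were taken from a list of gene names, chosen with earlier results of these data known. Comparisons with all genes tested may therefore not be independent of that choice. All 39 were present among the 23228 genes of the deposited tables and all 39 passed the filter on low counts, which left 14541 genes to test. The cells were of the human line MDA-MB-468, a triple-negative breast cancer model, with a doxycycline-inducible estrogen receptor beta (ERβ1, encoded by ESR2). RNA was sequenced from 12 samples in 4 groups of 3. The induced E2 cells had doxycycline at 50 ng/mL for 48 hours and then 17β-estradiol (E2, the receptor's ligand) at 10 nM for 4 hours. The induced vehicle cells had the same doxycycline and then 0.1% DMSO for 4 hours. The uninduced E2 cells had no doxycycline and then E2, and the uninduced vehicle cells had no doxycycline and then DMSO. All groups carry the inducible ERβ1, and all grew without phenol red and in charcoal-stripped serum, which is depleted of steroid hormones. The serum was at 10% for 3 days and at 5% during the experiment, in every group. No cells without the inducible ERβ1 were given doxycycline, so the effects of the drug and of the receptor cannot be told apart. The labels name triplicates but no separate cultures, and the spread behind each p-value is that between these samples, which may be technical.

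Replication starts when the origin recognition complex, with CDC6 and CDT1, loads the ring-shaped MCM helicase onto DNA in G1, a step that geminin (GMNN) blocks later in the cycle. CDC45 and the GINS complex then join the helicase and switch it on, and polymerases held by the PCNA clamp copy both strands. E2F transcription factors drive most of these genes as cells leave G1, and the retinoblastoma protein RB restrains them. MDA-MB-468 cells are known to lack functional RB, and estrogen acting through receptor alpha is known to push breast cancer cells into S phase, whereas receptor beta is often reported to slow growth.

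The libraries held 7.89 to 33.3 M (1000000) expected counts, the shallowest being uninduced vehicle replicate 1. ESR2 stood at 104 ± 10.2 CPM (counts per 1000000, SD, n = 3) in induced E2 cells and 121 ± 11.7 CPM in induced vehicle cells. It stood at 1.61 ± 0.57 CPM in uninduced E2 cells and 1.30 ± 0.22 CPM in uninduced vehicle cells, so the induction matched the labels in every library. All 10 markers of basal triple-negative cells averaged at least 1 CPM in some group, though KRT6A averaged 0.92 CPM in induced vehicle cells. Of 8 luminal and receptor markers, 2 averaged under 1 CPM in every group, while KRT8 averaged 1950 to 2810 CPM. In every group, 6 of 8 fibroblast and 6 of 8 leukocyte markers averaged under 1 CPM, and 2 of each list were at 0 throughout. ESR1, which encodes receptor alpha and was looked at to check the label, was low but not at 0, with 4.02 ± 0.38 CPM in induced E2, 3.86 ± 0.62 CPM in induced vehicle, 4.64 ± 0.75 CPM in uninduced E2 and 4.61 ± 1.34 CPM in uninduced vehicle cells. RB1 was at 0.92 ± 0.13 CPM in induced E2, 0.73 ± 0.09 CPM in induced vehicle, 0.83 ± 0.08 CPM in uninduced E2 and 1.30 ± 0.17 CPM in uninduced vehicle cells.

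Per transcript length, the 39 genes spanned a wide range in uninduced vehicle cells. PCNA, the sliding clamp, was the most abundant at 884 ± 26.6 TPM (transcripts per 1000000, SD, n = 3). TYMS, which makes thymidylate, followed at 311 ± 4.72 TPM, then the helicase subunit MCM3 at 231 ± 3.36 TPM and GMNN at 209 ± 5.92 TPM. The median gene, E2F1, stood at 47.3 ± 1.35 TPM. The lowest were MCM10, which helps to activate the helicase, at 14 ± 0.67 TPM and POLE2, a subunit of the leading-strand polymerase, at 9.95 TPM. Of 38 neighbouring pairs in this order, 11 were further apart than their SDs. The lowest count of any member in any library was 77, so none was limited by detection.

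The promoters of some of the genes called below are shown, in build GRCh38.p14, whereas the counts were made on hg19. They are RefSeq windows from 250 bases before to 50 bases after the transcription start. CDC6, E2F2 and FEN1 were called for E2, RFC3 and E2F2 for doxycycline, and MCM3 in 3 comparisons. CDC6 was also called for doxycycline with E2, as higher. Capitals mark matches to the E2F motif, searched as TTTCCCGC, TTTCGCGC, TTTGCCGC or TTTGGCGC on both strands.
CDC6, chr17:40287629-40287928, plus strand: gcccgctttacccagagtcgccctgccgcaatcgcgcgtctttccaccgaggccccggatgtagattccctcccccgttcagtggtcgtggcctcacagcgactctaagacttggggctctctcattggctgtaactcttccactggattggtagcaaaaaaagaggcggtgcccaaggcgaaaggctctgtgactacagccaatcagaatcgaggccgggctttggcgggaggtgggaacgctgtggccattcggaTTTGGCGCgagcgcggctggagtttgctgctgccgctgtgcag
E2F2, chr1:23531184-23531483, minus strand: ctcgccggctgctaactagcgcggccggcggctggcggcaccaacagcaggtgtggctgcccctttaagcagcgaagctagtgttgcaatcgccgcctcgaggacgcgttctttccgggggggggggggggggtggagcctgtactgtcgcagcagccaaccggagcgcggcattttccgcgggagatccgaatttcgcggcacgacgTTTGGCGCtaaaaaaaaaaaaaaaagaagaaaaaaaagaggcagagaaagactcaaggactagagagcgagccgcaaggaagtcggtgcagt
FEN1, chr11:61792661-61792960, plus strand: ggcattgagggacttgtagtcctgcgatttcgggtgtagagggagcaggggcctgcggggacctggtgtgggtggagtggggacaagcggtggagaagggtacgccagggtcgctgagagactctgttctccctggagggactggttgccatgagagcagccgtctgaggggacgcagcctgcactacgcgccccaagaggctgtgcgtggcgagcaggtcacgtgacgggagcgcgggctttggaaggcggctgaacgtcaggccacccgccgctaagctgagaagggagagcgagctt
MCM3, chr6:52284693-52284992, minus strand: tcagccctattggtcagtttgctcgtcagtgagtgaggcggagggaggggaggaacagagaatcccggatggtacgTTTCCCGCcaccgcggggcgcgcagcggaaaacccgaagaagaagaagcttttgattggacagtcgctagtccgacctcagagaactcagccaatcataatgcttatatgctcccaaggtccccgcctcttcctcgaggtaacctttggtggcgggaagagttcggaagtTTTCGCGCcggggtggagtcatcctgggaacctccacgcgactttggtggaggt
RFC3, chr13:33817899-33818198, plus strand: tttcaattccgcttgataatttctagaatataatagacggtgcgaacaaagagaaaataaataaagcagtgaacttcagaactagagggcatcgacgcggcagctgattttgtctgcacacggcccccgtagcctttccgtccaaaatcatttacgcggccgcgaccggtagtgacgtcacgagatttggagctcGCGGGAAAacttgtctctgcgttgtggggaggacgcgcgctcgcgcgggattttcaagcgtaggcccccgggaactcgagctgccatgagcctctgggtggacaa
The match lay at +7 from the start in CDC6, at −42 in E2F2, at −174 and −4 in MCM3 and at −55 in RFC3, where it is on the opposite strand, while FEN1 had none. A window was found for 34 of the 39 genes, and GINS4, MCM4, MCM5, POLD3 and RPA2 had no entry. The E2F motif was in 20 of the 34 windows (58.8%), against 5.11% of the windows of 9874 tested genes and 3.31% of all 35116 windows. The full estrogen response element, GGTCANNNTGACC, was in 0 of the 34 windows, against 0.0101% of the tested genes' windows. The GC box, GGGCGG, was in 24 of the 34 windows (70.6%), against 68.9% of the tested genes' windows. The CHR element TTTGAA, known from genes of late cell cycle phases, was in 1 of the 34 windows (2.94%), against 9.69%. A match is a run of letters and not a shown binding site.

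Doxycycline without E2 was followed by a small downward shift across most of the machinery. Of the 39 genes, 36 had a fitted change below 0, and the median change was −0.12 on the log2 scale, or −8.07%, while the median of all genes tested was −0.002. The shift was called for 16 genes as lower and for 0 as higher, at an adjusted p under 0.05 in edgeR's quasi-likelihood test with the replicate number as a block. Over all genes tested, 4.48% were called lower and 5.54% higher. Each called decrease was small, between −15.7% and −7.05%. In bulk RNA, fewer cells in S phase and less of these transcripts per cell cannot be told apart.

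Summed over the 39 genes, the induced and uninduced libraries were apart. The genes took 0.383%, 0.385% and 0.383% of the counts in induced E2 libraries and 0.381%, 0.391% and 0.392% in induced vehicle libraries. They took 0.425%, 0.418% and 0.422% in uninduced E2 libraries and 0.434%, 0.414% and 0.423% in uninduced vehicle libraries. Every induced library lay below every uninduced library, and the E2 and vehicle libraries overlapped in both states. These shares are of the deposited counts, without the TMM scaling used for CPM. The TMM factors were 0.9718 to 0.9792 in induced E2 libraries and 0.9993 to 1.015 in the others. Scaling would therefore raise the induced E2 shares relative to the rest.

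**Figure D1:**
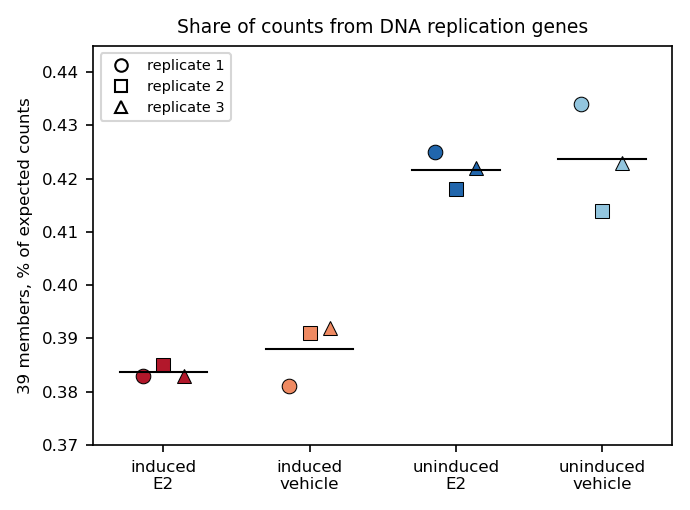
Share of each library's expected counts that came from the 39 DNA replication genes, in percent and without TMM scaling, by group. Points are libraries with a symbol for each replicate number, lines are group means, and the axis starts above 0; the 6 induced libraries lie between 0.381% and 0.392%, below the 6 uninduced ones at 0.414% to 0.434%.

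Within each pair of same-numbered libraries, the median of the 39 changes was −0.20, −0.079 and −0.10 on the log2 scale for numbers 1, 2 and 3. In these pairs 36, 35 and 36 of the 39 genes were lower in induced than in uninduced vehicle cells, against 51.0%, 50.2% and 50.4% of all genes tested. In 27 of the 39 genes, all 3 induced vehicle libraries lay below all 3 uninduced vehicle libraries, as did 10.1% of all genes tested. The shift was lower in all 3 pairs for 31 genes, against 21.9% of all genes tested. Number 1 gave the largest shift and held the shallowest library, and without number 1 the median was −0.083. Whether depth has a part in the size for number 1 was not tested.

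**Figure D2:**
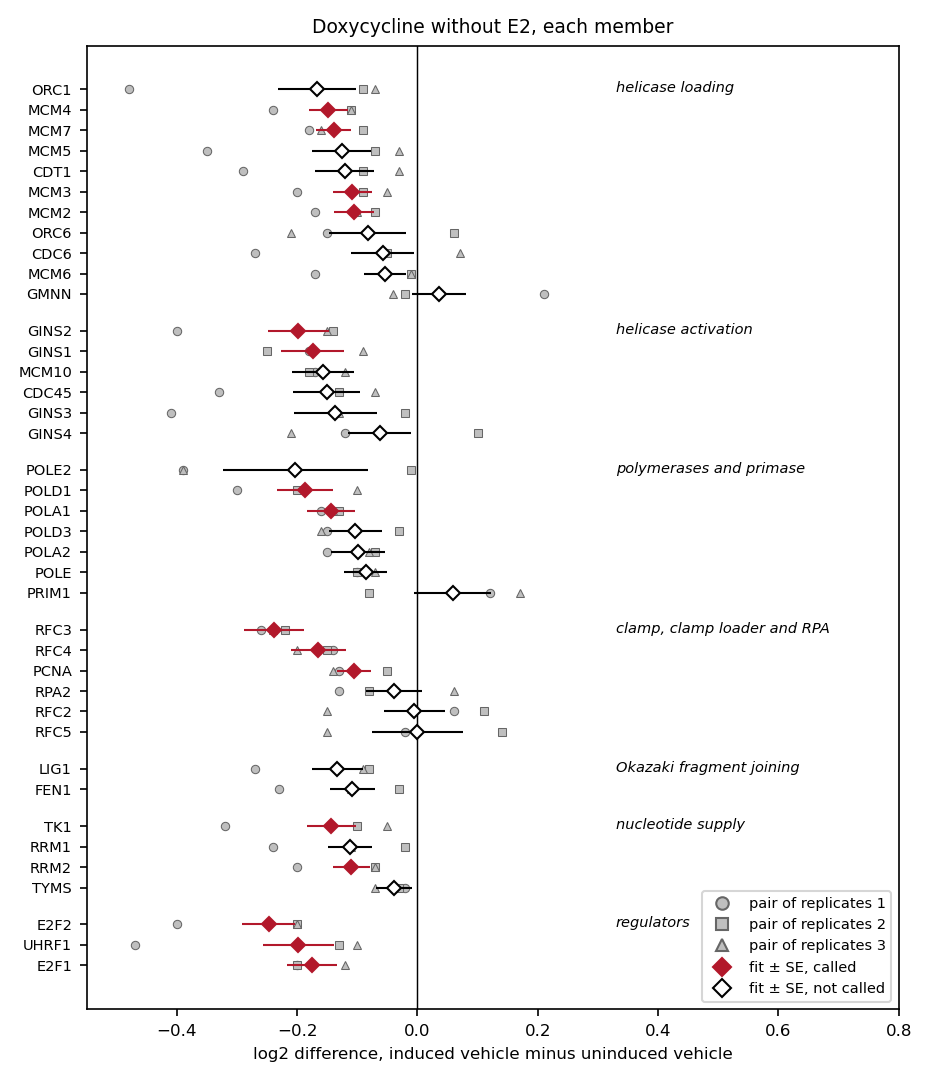
Log2 difference in each of the 39 genes for doxycycline without E2, induced vehicle minus uninduced vehicle, grouped by role. Grey symbols are the differences within each pair of same-numbered libraries, diamonds the fitted change with its standard error, and filled red diamonds the 16 genes called; 36 of the 39 fitted changes lie below 0.

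The decrease was spread over the roles. In helicase loading, 4 of 11 genes fell and 10 had a change below 0. MCM7, a subunit of the helicase ring, had 216, 244 and 235 CPM in induced vehicle cells, against 244, 260 and 262 CPM in uninduced vehicle cells. The groups did not overlap, and the fitted log2 change was −0.14 (SE 0.029, adjusted p = 0.00271, edgeR). MCM4, another subunit, had 256, 282 and 282 CPM in induced vehicle cells, against 304, 305 and 304 CPM in uninduced vehicle cells, and fell by 0.15 (SE 0.032, adjusted p = 0.00462, edgeR). MCM2 (log2 −0.11) and MCM3 (log2 −0.11) were the other 2 called. MCM5, MCM6, ORC1, ORC6, CDC6, CDT1 and GMNN were not called, and GMNN, the loading inhibitor, was the only one of the 11 above 0, at 0.04 (SE 0.045).

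In helicase activation, 2 of 6 genes fell and all 6 had a change below 0. They were GINS2 (log2 −0.20) and GINS1 (log2 −0.17), subunits of one complex. The same complex's GINS3 and GINS4 were not called, at −0.14 (SE 0.069) and −0.06 (SE 0.052). Among the polymerases and primase, 2 of 7 fell. POLD1, the catalytic subunit of the lagging-strand polymerase delta, had 59.7, 63.6 and 63.1 CPM in induced vehicle cells, against 73.3, 72.9 and 67.5 CPM in uninduced vehicle cells. The groups did not overlap, and the change was −0.19 (SE 0.046, adjusted p = 0.0124, edgeR). POLA1, the catalytic subunit of the priming polymerase alpha, had a log2 change of −0.14. PRIM1, the primase subunit, was not called, at 0.06 (SE 0.064).

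Of the 6 clamp, clamp loader and RPA genes, 3 fell. RFC3, a subunit of the loader that places PCNA on DNA, had 37, 38.1 and 41.9 CPM in induced vehicle cells, against 44.5, 44.4 and 49.3 CPM in uninduced vehicle cells. The groups did not overlap, and RFC3 fell by 15.3% (log2 −0.24, SE 0.050, adjusted p = 0.00325, edgeR). RFC4, in the same loader, had a log2 change of −0.17 and PCNA itself one of −0.11. The loader subunits RFC2 and RFC5 stood near 0, at −0.005 (SE 0.051) and 0 (SE 0.076). FEN1 and LIG1, which trim and seal Okazaki fragments, were not called, at −0.11 (SE 0.037) and −0.13 (SE 0.043).

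In nucleotide supply, 2 of 4 genes fell, RRM2 of ribonucleotide reductase (log2 −0.11) and thymidine kinase TK1 (log2 −0.14). TYMS was at −0.04 (SE 0.030) and not called. All 3 regulators fell. E2F2, an activating E2F factor, had 47.3, 53.2 and 54.0 CPM in induced vehicle cells, against 62.6, 60.9 and 62.2 CPM in uninduced vehicle cells. This was the smallest adjusted p of the 39 genes, with a change of −15.7% (log2 −0.25, SE 0.044, adjusted p = 0.000737, edgeR). E2F1, of the same class, had 48.9, 52.3 and 53.7 CPM in induced vehicle cells, against 56.3, 60.3 and 58.5 CPM in uninduced vehicle cells (log2 −0.18, SE 0.042, adjusted p = 0.00957, edgeR). UHRF1, which keeps DNA methylation through replication, changed by −0.20 (SE 0.059).

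Without the block on replicate number, 3 of the 16 calls were left, GINS2, MCM4 and E2F2, against 1.37% of all genes tested. The count of lower calls was 6, 9 and 8 with uninduced vehicle replicates 1, 2 and 3 left out in turn. It was 7 and 8 without induced vehicle replicates 1 and 2. Over all genes tested, the lower calls in these fits also fell, from 651 to 444, 467, 411, 444 and 448 in the same order. MCM4, MCM7, RFC3 and E2F2 kept their calls with any 1 of the 12 libraries left out. Of the 12 such fits, MCM2 was called in 2, MCM3 in 4, POLA1 and UHRF1 in 6 each, GINS1, RFC4 and TK1 in 7 each, RRM2 in 8, PCNA in 9 and GINS2 in 10, with highest adjusted p between 0.0653 (GINS2) and 0.336 (GINS1). E2F1 lost its call without uninduced vehicle replicate 2 (adjusted p = 0.113), and POLD1 without that library (0.0898) and without induced vehicle replicates 1 (0.0568) and 2 (0.0548).

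RNA quality genes and cell markers were followed over the same libraries. The RNA quality genes were mostly histone genes, so this list does not measure RNA quality alone. The 9 tested had a median log2 change of 0.15 without E2, with 1 called, the histone gene HIST1H2AC (log2 0.34, higher). That call was lost without the block (adjusted p = 0.2, edgeR). The list summed to 409 to 561.5 CPM in induced vehicle against 422 to 462 CPM in uninduced vehicle libraries. The 10 basal markers summed to 3774 to 4053 CPM in induced vehicle against 4609 to 4826 CPM in uninduced vehicle libraries. The 8 luminal and receptor markers summed to 3739 to 3823 CPM in induced vehicle against 3087 to 3316 CPM in uninduced vehicle libraries. These sums rest mainly on few genes, as EGFR averaged 2390 CPM, KRT8 2350 CPM and KRT18 1250 CPM in induced vehicle cells. Of the 10 basal markers 6 were called lower and 1 higher, and of 6 tested luminal markers 3 were called higher and 0 lower. Over all genes tested 4.48% were called lower and 5.54% higher. With E2 in both arms, the luminal markers summed to 4338 to 4774 CPM in induced E2 against 3022 to 3258 CPM in uninduced E2 libraries. The basal markers summed to 3566 to 3890 CPM in induced E2 against 4455 to 4641 CPM in uninduced E2 libraries. In this comparison 5 basal markers were called lower and 0 higher, and 4 luminal markers higher and 1 lower. Over all genes tested 18.2% were called lower and 19.1% higher. The RNA quality genes summed to 456 to 474.5 CPM in induced E2 against 421 to 489 CPM in uninduced E2 libraries, with 0 called. The part of these lists in the changes of the replication genes, with or without E2, was not tested.

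With E2 present in both arms, doxycycline lowered 13 of the 39 genes and raised 3, against 18.2% of all genes tested called lower and 19.1% higher. The median change was −0.095, against −0.010 over all genes tested, and 32 genes were below 0. With upper quartile scaling there were 22 lower calls and a median of −0.137, against −0.052 over all genes tested. The calls over all genes were then 2259 higher and 3618 lower, against 2774 higher and 2646 lower with TMM. The pairs of numbers 1, 2 and 3 had medians of −0.074, −0.076 and −0.069, with 30, 30 and 31 of the 39 genes lower. The groups compared here are not those of the vehicle comparison, but both comparisons come from the same fit to all 12 libraries. They share its replicate block and its estimate of spread, so they are not independent. RFC4 and POLA1 lost their calls here without single vehicle libraries (adjusted p = 0.051 to 0.0715, edgeR). Of the 39 genes, 11 were called lower in both, which is 68.8% of the 16 and 84.6% of the 13. Over all genes tested, the lower calls in both made up 80.2% of those without E2 and 19.7% of those with E2. Below 0 in both were 31 of the 39 genes (79.5%), against 35.7% of all genes tested.

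The smallest adjusted p among the decreases were those of MCM7 and MCM3, subunits of the helicase ring. MCM7 had 211, 232 and 231 CPM in induced E2 cells, against 246, 269 and 258 CPM in uninduced E2 cells, with no overlap (log2 −0.20, SE 0.028, adjusted p = 9.17e-06, edgeR). MCM3 had 280, 289 and 289 CPM in induced E2 cells, against 333, 332 and 333 CPM in uninduced E2 cells, and fell by 14.1% (log2 −0.22, SE 0.032, adjusted p = 1.51e-05, edgeR). MCM2 had 121, 119 and 124 CPM in induced E2 cells, against 135, 137 and 135 CPM in uninduced E2 cells (log2 −0.16, SE 0.032, adjusted p = 0.000486, edgeR). All 3 sets of libraries were separated. MCM4 also fell (log2 −0.15), whereas MCM5 and MCM6 were not called, at −0.06 (SE 0.047) and −0.06 (SE 0.034).

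Of the 6 clamp, clamp loader and RPA genes, 3 were called lower, among them PCNA and RFC3. RFC2, RFC5 and RPA2 were not called. They averaged 47.7, 31.7 and 47.2 CPM in induced E2 cells, against 47.7, 32.1 and 50.9 CPM in uninduced E2 cells. RFC3 had the largest decrease of the 39 genes in this comparison. It had 35.8, 39.9 and 37.2 CPM in induced E2 cells, against 43.5, 45.4 and 49.4 CPM in uninduced E2 cells, and fell by 18.1% (log2 −0.29, SE 0.048, adjusted p = 6.92e-05, edgeR). PCNA had 468, 481 and 469 CPM in induced E2 cells, against 515, 518 and 527 CPM in uninduced E2 cells (log2 −0.14, SE 0.027, adjusted p = 0.000411, edgeR). Neither gene's groups overlapped. POLD1 (log2 −0.18), LIG1 (log2 −0.16) and ORC1, the large origin recognition subunit (log2 −0.22), were also lower. GINS1, POLA1, RFC4 and E2F1 completed the 13, at −0.15 to −0.11.

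The 3 genes that rose were CDC6 (log2 0.33, SE 0.047, adjusted p = 1.39e-05, edgeR), GINS4 (log2 0.23, SE 0.049, adjusted p = 0.00097) and POLD3 (log2 0.12, SE 0.041, adjusted p = 0.0288). All 4 nucleotide supply genes were below 0 without a call. E2F2 stood at −0.008 (SE 0.042). In 19 genes all induced E2 libraries lay below all uninduced E2 libraries and in 4 above them, against 20.5% and 20.9% of all genes tested. Without the block, 9 lower and 2 higher calls were left, against 13% and 15% of all genes tested, and GINS1, POLA1, RFC4, E2F1 and POLD3 lost theirs. POLD3 also lost its call without uninduced E2 replicate 2 (adjusted p = 0.294) or induced E2 replicates 2 (0.176) or 3 (0.0598). ORC1, GINS1, POLA1, RFC4 and E2F1 kept theirs in 10, 9, 6, 3 and 9 of 12 such fits, with highest adjusted p of 0.0645, 0.192, 0.128, 0.21 and 0.0837.

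**Figure D3:**
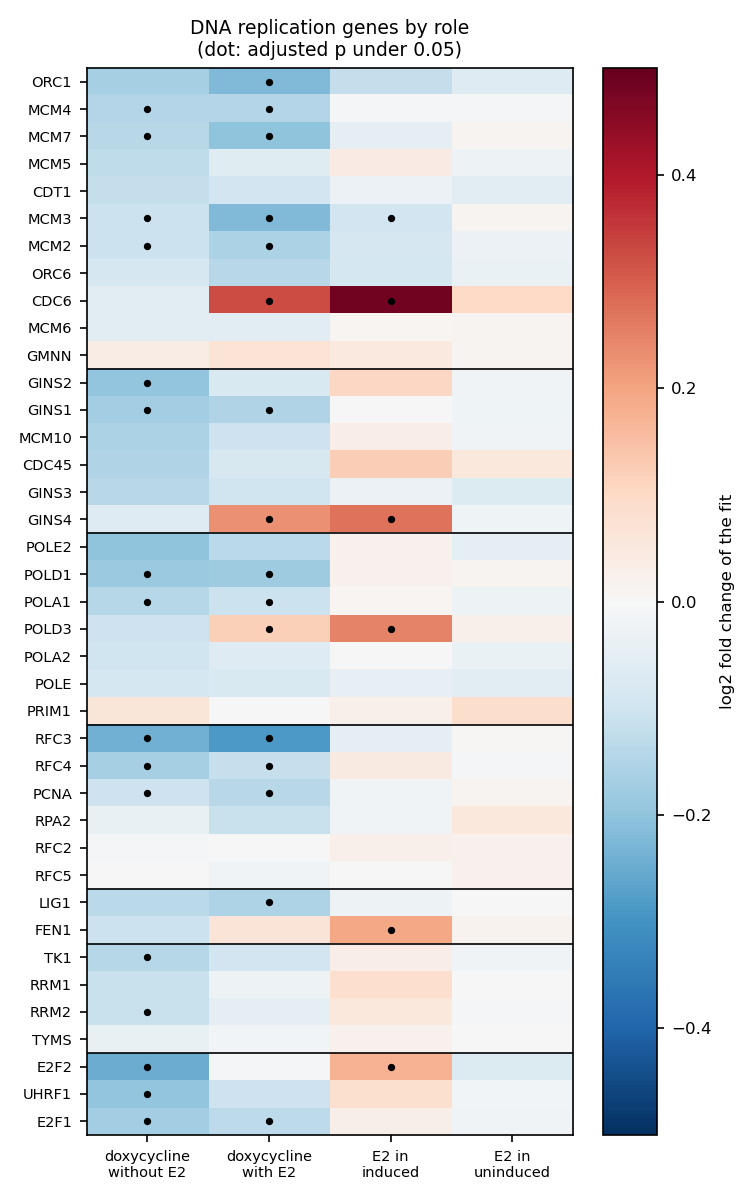
Fitted log2 fold change of the 39 genes (rows, lines separate the roles) in 4 comparisons (columns), on a colour scale from −0.5 to 0.5, with a dot where the adjusted p was under 0.05. The doxycycline columns are mostly blue with 16 and 13 lower calls, the column for E2 in induced cells has 5 higher calls and 1 lower, and the column for E2 in uninduced cells has none.

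Within induced cells, 4 hours of E2 raised 5 of the 39 genes and lowered 1, against 13.5% of all genes tested called higher and 10.3% lower. The 5 genes were CDC6, POLD3, GINS4, FEN1 and E2F2, and the 1 was MCM3; 5 of 39 is near the share of all genes called higher. The other 33 genes had fitted changes between −0.12 and 0.12. The median over the 39 genes was 0.021, against −0.005 over all genes tested. With upper quartile scaling it was −0.004, against −0.03 over all genes tested. In 8 of the 39 genes, all 3 induced E2 libraries lay above all 3 induced vehicle libraries, against 16.6% of all genes tested.

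CDC6, the loading factor that recruits the helicase to origins, showed the largest change. It had 82.3, 81.7 and 82.4 CPM in induced E2 cells, against 55.4, 57.5 and 62.5 CPM in induced vehicle cells. The induced E2 libraries lay close together and above every other library in the study, and E2 raised CDC6 by 39.7% (log2 0.48, SE 0.049, adjusted p = 2.14e-07, edgeR). The other 10 loading genes had changes of −0.12 to 0.05.

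POLD3, an accessory subunit of polymerase delta, had 80.0, 83.2 and 78.6 CPM in induced E2 cells, against 67.3, 70.6 and 65.1 CPM in induced vehicle cells (log2 0.25, SE 0.042, adjusted p = 0.000161, edgeR). GINS4, a subunit of the helicase activator, had 84.8, 87.2 and 81.8 CPM in induced E2 cells, against 72.1, 72.5 and 65.5 CPM in induced vehicle cells (log2 0.27, SE 0.050, adjusted p = 0.000381, edgeR). In both genes the groups were apart. The partners of these subunits were not called, POLD1 at 0.02 (SE 0.046), GINS1 at 0.002 (SE 0.052), GINS2 at 0.10 (SE 0.050) and GINS3 at −0.03 (SE 0.068).

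FEN1, the nuclease that removes the flaps of Okazaki fragments, had 134, 142 and 141 CPM in induced E2 cells, against 114, 126 and 124 CPM in induced vehicle cells (log2 0.19, SE 0.036, adjusted p = 0.000404, edgeR). E2F2 had 56.5, 59.2 and 59.1 CPM in induced E2 cells, against 47.3, 53.2 and 54.0 CPM in induced vehicle cells (log2 0.17, SE 0.044, adjusted p = 0.00603, edgeR). Neither gene's groups overlapped. LIG1, which works after FEN1, was at −0.03 (SE 0.042), and E2F1 was at 0.03 (SE 0.042). These 5 calls held with any 1 library left out.

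MCM3 had 280, 289 and 289 CPM in induced E2 cells, against 282, 315 and 318 CPM in induced vehicle cells. The groups overlapped through replicate 1 of the vehicle group, and the change was −0.10 (SE 0.032, adjusted p = 0.0376, edgeR with the block). The call was lost without the block (adjusted p = 0.159). It was also lost, at adjusted p of 0.0521 to 0.26, without uninduced E2 replicate 3, without induced vehicle replicates 2 or 3, and without induced E2 replicates 1, 2 or 3. Without induced vehicle replicate 1, 3 genes were called lower.

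**Figure D4:**
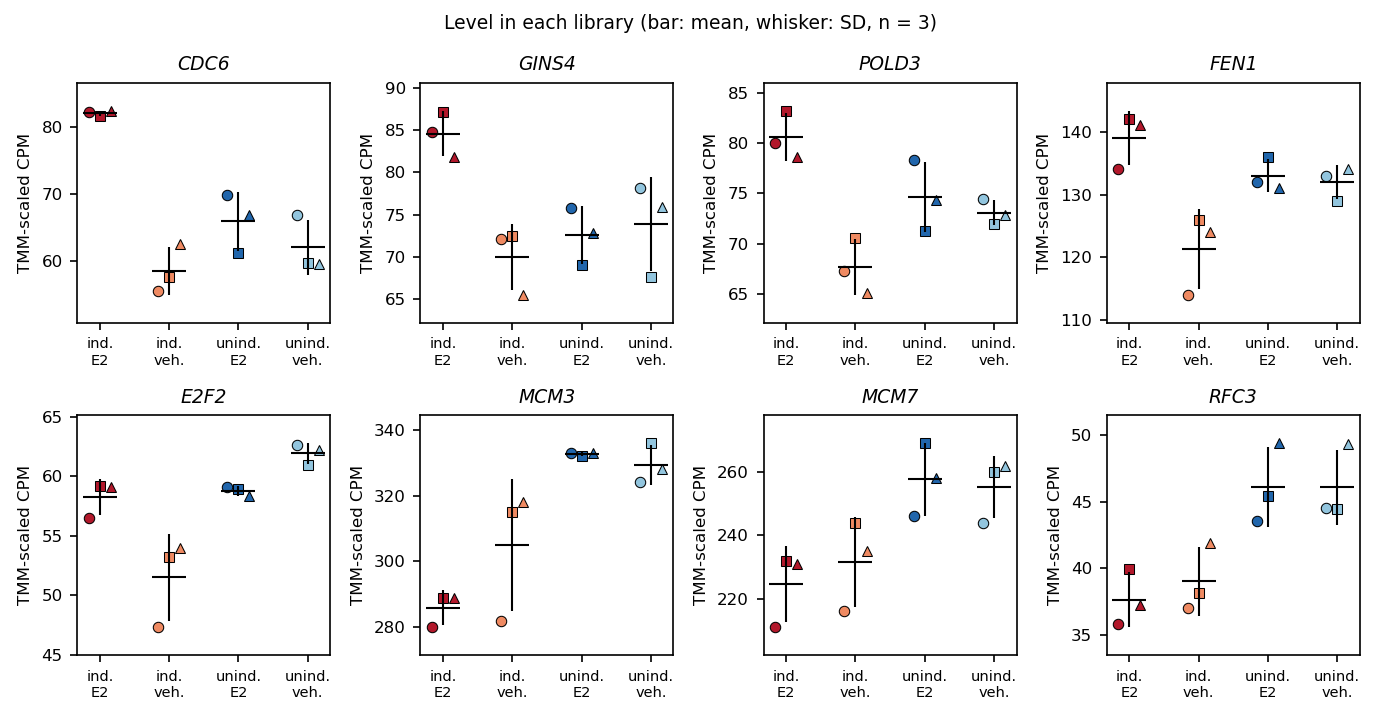
TMM-scaled CPM of 8 of the genes in each of the 12 libraries, by group, each panel with its own axis that starts above 0. Points are libraries with a symbol for each replicate number, bars the mean and whiskers the SD (n = 3); CDC6 is highest in the 3 induced E2 libraries, at 81.7 to 82.4 CPM, and MCM3, MCM7 and RFC3 are lower in induced E2 than in uninduced E2 cells.

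In uninduced cells E2 changed 0 of the 39 genes, and 0 of the 14541 genes tested (0%) were called, in edgeR with or without the block. At an unadjusted p under 0.05 there were 0 of the 39 genes and 451 of all genes tested, and DESeq2 and limma-voom also called 0 of the 39. The fitted changes ran from −0.07 to 0.10, with a median of −0.007. CDC6 had 69.8, 61.1 and 66.9 CPM in uninduced E2 cells, against 66.8, 59.6 and 59.5 CPM in uninduced vehicle cells, with overlap (log2 0.10, SE 0.050, adjusted p = 1, edgeR). E2F2 had 59.1, 58.9 and 58.3 CPM in uninduced E2 cells, against 62.6, 60.9 and 62.2 CPM in uninduced vehicle cells. Its groups did not overlap, and it was not called (log2 −0.07, SE 0.043, adjusted p = 1, edgeR). The 95% intervals of 33 of the 39 genes lay within 0.2 of 0 on the log2 scale, which is −12.9% to 14.9%. The widest, of POLE2, ran from −0.34 to 0.25. These intervals use the SE with a t value at 6 residual degrees of freedom, and are wider than the edgeR p-values imply.

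The difference between the E2 changes in induced and uninduced cells was tested as an interaction. It was called for 5 of the 39 genes, all higher, against 8.86% of all genes tested called higher and 5.88% lower. These were the same 5 genes that E2 raised in induced cells. Both comparisons contain the same induced E2 and induced vehicle libraries, so this match is not a separate result. CDC6 had a difference of 0.38 (SE 0.070, adjusted p = 0.00055, edgeR), GINS4 one of 0.29 (SE 0.072, 0.00775) and E2F2 one of 0.24 (SE 0.061, 0.00991). POLD3 had a difference of 0.22 (SE 0.060, adjusted p = 0.0154, edgeR) and FEN1 one of 0.17 (SE 0.051, 0.0255). MCM3 was not called, at −0.11 (SE 0.046, adjusted p = 0.126, edgeR).

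In all 5 genes the induced vehicle group had the lowest mean, and in CDC6, GINS4, POLD3 and FEN1 the induced E2 group had the highest. These 2 groups are arms of the comparisons that picked the 5 genes, so this order is not separate evidence. CDC6 averaged 82.1 ± 0.37 CPM in induced E2 cells, 58.5 ± 3.67 CPM in induced vehicle cells, 66.0 ± 4.47 CPM in uninduced E2 cells and 62.0 ± 4.20 CPM in uninduced vehicle cells (SD, n = 3 each). E2F2 averaged 58.3 ± 1.52 CPM in induced E2 cells, 51.5 ± 3.66 CPM in induced vehicle cells, 58.8 ± 0.43 CPM in uninduced E2 cells and 61.9 ± 0.89 CPM in uninduced vehicle cells, its highest mean. FEN1 averaged 139 ± 4.25 CPM in induced E2 cells, 121 ± 6.73 CPM in induced vehicle cells, 133 ± 2.30 CPM in uninduced E2 cells and 132 ± 2.82 CPM in uninduced vehicle cells. MCM4, MCM7 and RFC3, which kept their calls for doxycycline in every fit that left out 1 library, had E2 changes in induced cells of −0.006 (SE 0.032), −0.05 (SE 0.028) and −0.04 (SE 0.051).

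Doxycycline without E2 lowered 1 of 31 other replication fork genes, the helicase RECQL4 (log2 −0.21). It lowered 1 of 17 nucleotide synthesis genes, the pyrimidine enzyme CAD (log2 −0.17), and 1 of 11 chromatin assembly genes, the histone chaperone ASF1B (log2 −0.19). Over all genes tested 4.48% were called lower, and each of these counts is of 1 gene, while the medians of the 3 lists were −0.07, −0.07 and −0.08, against −0.002. Of 26 G2 and M phase genes, all 26 were below 0 with a median of −0.08, and 5 were called lower, among them the ubiquitin conjugating enzyme UBE2C (log2 −0.28) and the mitotic kinase AURKB (log2 −0.22). Without the block, the calls were 0 of the fork genes and 3 of the G2 and M phase genes.

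Among 17 genes of the E2F and RB family, doxycycline without E2 lowered MYBL2 (log2 −0.18) and FOXM1 (log2 −0.14), activators of later cell cycle genes, and raised RBL2 (log2 0.17), a pocket protein related to RB. Of 17 tested G1 to S regulators it lowered 5 and raised 1, the inhibitor CDKN1A (p21, log2 0.30). Among those lowered were the kinase CDK6 (log2 −0.21) and the CDK inhibitors CDKN2B (log2 −0.395) and CDKN1C (log2 −0.44). CDKN1A averaged 64.3 ± 4.73 CPM in induced vehicle cells and 52.7 ± 4.04 CPM in uninduced vehicle cells. CDK6 and CDKN1A lost these calls without the block (adjusted p = 0.171 and 0.0692, edgeR), as did FOXM1 (0.084) and CDKN1C (0.34). CDKN2B kept its call without the block (adjusted p = 0.000179, edgeR).

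With E2, doxycycline lowered 7 and raised 3 of the 31 fork genes, lowered 8 and raised 1 of the 17 nucleotide synthesis genes, and lowered 4 and raised 0 of the 11 chromatin assembly genes. Over all genes tested 18.2% were called lower and 19.1% higher, so the share of fork genes called lower is near the background. Among the genes lowered were CAD (log2 −0.35), the purine enzyme ATIC (log2 −0.21) and the histone chaperones CHAF1B (log2 −0.34) and NASP (log2 −0.20). Among those raised were the folate enzyme MTHFD2 (log2 0.32) and the fork protection factor TIPIN (log2 0.38). Of the G2 and M phase genes, 8 were lower and 4 higher. Without the block, 3 fork genes, 4 G2 and M phase genes and 3 chromatin assembly genes were called lower. Of the 17 tested G1 to S regulators, 7 were lower and 5 higher. CDKN1A rose 2.34-fold (log2 1.23) and CCND1, cyclin D1, by 0.60, while CDK6 fell by 0.76. The CDK inhibitor CDKN2B also fell (log2 −0.83).

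In induced cells, E2 raised 1 of the 31 fork genes, the checkpoint adaptor TOPBP1 (log2 0.18), and lowered 0. It raised 2 and lowered 3 of the nucleotide synthesis genes, with MTHFD2 at 0.28 and CAD at −0.24. Of the 17 genes of the E2F and RB family 4 fell, among them E2F5 (log2 −0.56), E2F8 (log2 −0.28) and E2F4 (log2 −0.20), and 1 rose, LIN54 (log2 0.27), a DNA-binding subunit of the DREAM complex. Of the G1 to S regulators 5 rose and 5 fell, with CDKN1A at 0.92, CCND1 at 0.50, CDK6 at −0.64 and CDKN2B, a CDK inhibitor, at −0.42. Of the 26 G2 and M phase genes, 4 rose and 0 fell, near the 13.5% of all genes called higher, with CENPA (log2 0.30), AURKA (log2 0.20), CENPE (log2 0.20) and TPX2 (log2 0.16), of which AURKA was not called without the block (adjusted p = 0.0678). In uninduced cells E2 changed none of the genes of these lists at the same threshold.

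Some counts are less certain than their errors show, because no source used here gives the strand setting of the counting. In current gene models MCM7 shares 392 exon bases with AP4M1 on the opposite strand, TYMS 967 with ENOSF1 and RFC5 186 with WSB2. FEN1 shares 49 with FADS2 on the same strand, and the tables also list the pseudogene PCNAP1, which resembles PCNA.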

How the data were processed

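The authors deposited, for each library, RSEM expected counts and a fraction per gene, for 23228 gene symbols. RSEM 1.1.16, DESeq 1.7.10 and hg19 are named per the submitters' processing notes, without their roles; the aligner and strand setting are not given in the sources used here. TPM was the deposited fraction multiplied by 1000000.

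Counts were rounded to whole numbers for edgeR 4.0.16 (R 4.3.3; TMM scaling; filterByExpr, minimum count 10 and total 15; 14541 genes kept). A quasi-likelihood model with 4 group means and the replicate number as a block was fitted to all 12 libraries (6 residual degrees of freedom), p-values were Benjamini-Hochberg adjusted over all genes tested, and calls were made under 0.05. The SE is the fitted log2 change divided by the root of its F statistic. The script was tested on simulated data.

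The block follows the rule by which the genes were chosen. Deviations from group means correlated at 0.104 to 0.464 between same-numbered libraries (18 pairs) and at −0.427 to 0.278 between others (36). The number goes with the date in the file names: number 1 is earlier, and numbers 2 and 3 share a later date.

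The 39 genes and the companion lists were chosen with earlier results of these data known. Values in each library were given for up to 6 called genes per contrast with the smallest p, or for 2 where none was called; any of the 39 could be named, and up to 4 called genes per companion list. Alternatives were no block, RLE and upper quartile scaling, other filters, DESeq2 1.42.0, limma-voom (limma 3.58.1), only the groups compared, a threshold of 0.01, single libraries or numbers left out, and number 1 or the later date alone. Promoter windows were read from RefSeq (GRCh38.p14), and shared exon bases from GENCODE 29.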

Additional observations from a re-analysis of the deposited data

Results flagged for a closer look

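The change after E2 differed between induced and uninduced cells for 5 of the 39 genes, all higher, by the interaction term of the edgeR model. Over all genes tested, 8.86% were called higher and 5.88% lower, so 5 of 39 is not far above the share called higher. For CDC6 the log2 change was 0.48 in induced and 0.10 in uninduced cells, a difference of 0.38 that was called with any 1 of the 12 libraries left out. E2F2 changed by 0.17 in induced and −0.07 in uninduced cells, a difference of 0.24 that was also called in all 12 such fits.

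For GINS4 the changes were 0.27 in induced and −0.02 in uninduced cells, a difference of 0.29 that was called in 11 of the 12 fits. It missed the threshold without uninduced vehicle replicate 3 (adjusted p = 0.0516). POLD3 changed by 0.25 in induced and 0.03 in uninduced cells, and its difference of 0.22 was called in 8 of the 12 fits. It was lost without uninduced vehicle replicate 3, uninduced E2 replicate 2, induced vehicle replicate 3 or induced E2 replicate 2 (adjusted p = 0.06 to 0.0804).

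FEN1 changed by 0.19 in induced and 0.02 in uninduced cells. Its difference of 0.17 was called in 5 of the 12 fits, and was lost without the replicate block (adjusted p = 0.0928) and with upper quartile scaling. The fits that lost it left out uninduced vehicle replicates 1 or 3, uninduced E2 replicates 2 or 3, induced vehicle replicate 1, or induced E2 replicates 2 or 3 (adjusted p = 0.0534 to 0.101).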

How the results depend on the processing

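Of the values recomputed under alternatives, 846 kept their direction, their side of the threshold or their size, 64 counts or medians moved, 42 changes of single genes lost their call and 0 reversed; the causes were not tested. Without the replicate block, lower calls numbered 3 for doxycycline without E2 and 0 for E2 in induced cells; no direction changed. For doxycycline without E2 there were also 9 lower calls with limma-voom, 8 with only the groups compared and 5 at an adjusted p under 0.01. Over all genes, these settings gave 457, 519 and 334 lower calls, against 651. Leaving out libraries or numbers gave 6 to 18 lower calls, and 321 to 704 over all genes. The median was −0.201 for number 1 alone. For doxycycline with E2, upper quartile scaling gave 22 lower calls and a median of −0.137, against −0.052 over all genes. DESeq2 gave a median of −0.09 and number 1 alone −0.074. Leaving out libraries or numbers gave 7 to 14 lower calls and medians of −0.105 to −0.079. Over all genes, the lower calls in those fits numbered 1770 to 2796, against 2646.

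For E2 in induced cells, lower calls numbered 2 with upper quartile scaling, 0 with DESeq2 and 0 at an adjusted p under 0.01. They numbered 0 to 3 with libraries or numbers left out. Upper quartile scaling gave a median of −0.004, against −0.03 over all genes. For the interaction, upper quartile scaling gave 1 lower call, a threshold of 0.01 gave 3 higher calls, number 1 alone a median of 0.082, and leaving out libraries or numbers 1 to 5 higher and 0 to 1 lower calls. Over all genes, upper quartile scaling changed the higher and lower calls to 1696 and 1955, against 1963 and 1497, for E2 in induced cells, and to 2259 and 3618, against 2774 and 2646, for doxycycline with E2; for the interaction they became 1117 and 1135, against 1288 and 855. The small size of the changes and 3 libraries a group limit which single genes can be called.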
